A study of Physcomitrium patens with 12 samples.

Results

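Mature antheridia of the moss Physcomitrium patens from plants mutated in PpPINC, line pinC#29, were set against mature wild type antheridia. Of the 12 RNA-seq libraries of the series, 6 belong to this comparison and were chosen by their titles, with 3 libraries of mutant antheridia and 3 of wild type antheridia. All plants were of the Gransden strain, and each library was made from 8 antheridia picked on day 18 of sporophyte induction. The mutant is represented by 1 line only, and the mutation and any other change in that line cannot be told apart. How that line was made is not given in the sources used here. Organs were collected on 3 occasions, but no label ties a library to an occasion. Libraries are titled as biological replicates, but separate cultures are not stated, so p-values here cover only the spread among these libraries, which may be technical. The other 6 libraries, 3 of mutant and 3 of wild type archegonia, were used for the organ lists and to show the level of a named gene in the female organ.

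An antheridium is the male organ of a moss, a stalked sac in which a sterile jacket surrounds the cells that develop into swimming, flagellated sperm. PIN proteins are membrane carriers that move the hormone auxin out of plant cells, and their placement in the membrane can give auxin flow a direction. The title of the series links the studied protein to spermatogenesis and to abortion of the sporophyte, the stage that follows fertilisation. Of the 32926 genes in the count table, 0 could be paired with a name, so genes are given by identifier and no role is assigned to any of them.

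The libraries of the mutant group were unlike each other. Total counts were 22857361, 25464700 and 39833129 in mutant antheridia 1, 2 and 3, and 21896645, 25915149 and 26264021 in wild type antheridia 1, 2 and 3. Genes with at least 1 count numbered 23977, 19088 and 20359 in the mutant libraries, against 21654, 24027 and 22421 in wild type. Before any correction for depth the library labelled mutant antheridia 1 thus lay within the wild type range, while mutant antheridia 2 and 3 lay below all wild type libraries although neither was the shallowest. The group means were 21141 ± 2537 genes in mutant and 22701 ± 1211 in wild type antheridia (SD, n = 3; exact two-sided permutation p = 0.4, where the smallest possible p is 0.1). After each library was thinned to 21896645 counts, the numbers were 23956, 19009 and 20105 genes in mutant and 21654, 23955 and 22376 genes in wild type antheridia, in the same order, so at equal depth the library labelled mutant antheridia 1 and wild type antheridia 2 differed by 1 gene. The 100 genes with the most counts took 13.1%, 19.3% and 16.8% of the counts in mutant libraries 1, 2 and 3, and 13.8%, 14.0% and 16.5% in wild type libraries 1, 2 and 3.

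Spearman correlations across the 21288 tested genes, which are not independent replicates, were 0.707 to 0.769 between mutant libraries and 0.863 to 0.910 between wild type libraries. Mutant antheridia 1 and 2 correlated better with every wild type library than with any library of their own group, and mutant antheridia 3 did so with all but wild type antheridia 1. The library labelled mutant antheridia 1 had correlations of 0.824 to 0.864 with the wild type libraries, mutant antheridia 2 had 0.770 to 0.779 and mutant antheridia 3 had 0.762 to 0.851.

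3 genes bear on the identity of the libraries. The first, Pp3c10_24880, was recalled from the literature as the locus of PpPINC, but neither the files nor the reference table pair it with that name, so it is a candidate only. It had 66, 0 and 0 counts in mutant antheridia 1, 2 and 3, and 66, 39 and 165 counts in wild type antheridia. At 2.79 CPM (counts per 1000000 of the TMM-adjusted library total; CPM are not per length, so levels are compared within a gene) the library labelled mutant antheridia 1 lay between the lowest and highest wild type libraries, at 1.44 and 6.35 CPM. Its test over 6 libraries gave -2.02 ± 1.47 as log2 fold change (SE, with adjusted p = 0.958 in edgeR). Without the library labelled mutant antheridia 1 it was at least 70.8-fold lower in the mutant, against 3 counts over both remaining libraries (adjusted p = 0.463 in edgeR). The candidate had 3, 2 and 0 counts in mutant archegonia, against 94, 38 and 56 in wild type archegonia. The other genes were taken because earlier results had shown them near absent from archegonia of 1 genotype. Pp3c11_4360 had 33, 133 and 90 counts in mutant antheridia, against 0 counts in all 3 wild type libraries, which puts the library labelled mutant antheridia 1 on the mutant side. Pp3c6_26100 had 0, 102 and 1 counts in mutant antheridia, against 1233, 1042 and 680 in wild type antheridia, so here all mutant libraries were low and mutant antheridia 2 was the highest of them, at -4.80 ± 1.29 as log2 fold change (SE, with adjusted p = 0.958 in edgeR). In archegonia Pp3c11_4360 had 154, 241 and 220 counts in mutant and 0, 0 and 4 in wild type, and Pp3c6_26100 had no count in mutant and 989, 1581 and 1305 in wild type libraries. The library labelled mutant antheridia 1 therefore had the mutant level of 2 of these genes and a wild type level of the candidate. Of 14858 genes with at least 5 CPM in every wild type library, 906 and 426 were under 0.5 CPM in mutant antheridia 2 and 3. The part of detection in the 0 counts of the candidate was not tested. Results below are given with and without the library labelled mutant antheridia 1.

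The question of this comparison is how the transcripts of the male organ differ between the mutant line and wild type. In edgeR's quasi-likelihood test on the 6 libraries, 0 of 21288 genes (0%) passed the Benjamini-Hochberg adjusted threshold of 0.05, the smallest adjusted p being 0.705. An unadjusted p under 0.05 was reached by 908 genes (4.27%), of which 409 were higher and 499 lower in the mutant. limma-voom, limma-voom with sample quality weights and the legacy edgeR fit also called 0 genes, while the DESeq2 Wald test called 34 (0.16%), with 9 higher and 25 lower in the mutant. These are libraries of whole organs, in which fewer cells of a type and less RNA per cell cannot be told apart. By level alone, 938 genes (4.41%) had all 3 mutant libraries above all 3 wild type libraries and 1348 genes (6.33%) had all 3 below. The median difference of these genes was 1.00 on the log2 scale for the higher ones and 1.23 for the lower ones. Differences of 8-fold or more were found in 32 of the higher and 187 of the lower genes. With libraries scaled by total count only, the split was 659 higher and 1675 lower. Among genes averaging 100 CPM and over, 7.92% were higher and 3.04% lower without overlap, whereas among genes under 5 CPM 3.12% were higher and 7.12% lower.

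4 genes head this comparison by the naming rule, with the smallest p among genes without overlap that reached 10 CPM, and none passed the threshold in edgeR. Pp3c26_3990 had 28.5, 31.6 and 22.2 CPM in mutant antheridia 1, 2 and 3, and 3.31, 3.73 and 3.89 CPM in wild type antheridia. All mutant libraries were thus several times above all wild type libraries, and the replicates of each group lay close together. Its mean was 7.53-fold higher in the mutant, 2.91 ± 0.55 as log2 fold change (SE, with adjusted p = 0.958 in edgeR). Pp3c11_21050 had 35.1, 246 and 83.8 CPM in mutant antheridia, against 0, 0 and 2.69 CPM in wild type, so it was close to absent from wild type and uneven among the mutant libraries. Its log2 fold change was 7.06 ± 1.42 (SE; edgeR adjusted p = 0.958).

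On the lower side, Pp3c3_11110 had 7.18, 6.06 and 2.67 CPM in mutant antheridia, against 82.9, 58.1 and 73.2 CPM in wild type antheridia. The wild type mean was 13.5-fold above the mutant mean, with -3.76 ± 0.51 as log2 fold change (SE, with adjusted p = 0.705 in edgeR). Pp3c12_11710 had 9.79, 4.95 and 6.20 CPM in mutant antheridia, against 2983, 315 and 1605 CPM in wild type antheridia, -7.87 ± 1.07 as log2 fold change (SE, with adjusted p = 0.705 in edgeR). In an edgeR fit over both organs, which estimates the spread from all 12 libraries and called 3 genes, the adjusted p of Pp3c3_11110 was 0.0363. The 3 mutant libraries of Pp3c12_11710 differed by 1.98-fold at most, whereas the wild type libraries spanned 9.46-fold. Without the library labelled mutant antheridia 1 these 4 genes stood at 2.88, 7.50, -4.06 and -8.19 on the log2 scale in the order named. Their edgeR adjusted p then lay between 0.308 and 0.404. Their direction could not turn, because they were chosen with all mutant libraries beyond all wild type libraries.

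The same genes were looked up in archegonia, whose libraries are no part of the comparison above and whose CPM were scaled over all 12 libraries. Pp3c26_3990 had 29.0, 37.3 and 10.6 CPM in mutant archegonia, against 8.89, 7.16 and 6.0 CPM in wild type archegonia, again with no overlap, at 1.81 ± 0.49 as log2 fold change (SE, with adjusted p = 0.995 in edgeR). Pp3c3_11110 had 182, 111 and 130 CPM in mutant and 352, 260 and 189 CPM in wild type archegonia, at -0.91 ± 0.37 (SE; edgeR adjusted p = 0.995). Pp3c12_11710 was at 5779, 9950 and 9386 CPM in mutant and 28901, 19116 and 11225 CPM in wild type archegonia, so a gene near 5 to 10 CPM in mutant antheridia was among the heavily counted ones of the female organ in both genotypes. Pp3c11_21050 stayed at or below 0.0928 CPM in all archegonium libraries. For these 4 genes the test of whether the genotype difference was unlike in the organs gave edgeR adjusted p between 0.85 and 0.961.

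The authors' deposited table of this comparison called 15 of 20989 genes (0.0715%), 5 higher and 10 lower in the mutant. The DESeq2 test on the 6 libraries called all 15 among its 34. Both tests were made on the same comparison, so the shared calls are not independent evidence. Neither the 15 nor the 34 had overlap between the groups in any gene, beside 4.41% higher and 6.33% lower without overlap among all tested genes. A small p itself asks for separated groups, so this lack of overlap is no separate support. The 5 higher genes were Pp3c26_3990, Pp3c10_13060, Pp3c26_6020, Pp3c4_11810 and Pp3c1_29070. Named by the rule, Pp3c10_13060 had 340, 211 and 196 CPM in mutant antheridia, against 59.3, 72.8 and 71.4 CPM in wild type, a 3.67-fold higher mean and 1.71 as log2 fold change in the authors' deposited table, where its adjusted p was 0.00538. The genes that follow were picked after their values were seen. Pp3c4_11810 had 56.1, 92.5 and 50.4 CPM in mutant and 16.7, 15.7 and 14.7 CPM in wild type antheridia, a 4.23-fold higher mean. Pp3c26_6020 had 8.82, 12.1 and 34.0 CPM in mutant antheridia, against 0.629, 1.84 and 1.23 CPM in wild type antheridia, with the mutant libraries less even than in the other genes. Pp3c1_29070 had 65.8, 45.2 and 44.7 CPM in mutant and 17.9, 15.8 and 14.6 CPM in wild type antheridia, a 3.23-fold higher mean. In Pp3c4_11810 and Pp3c1_29070 the wild type libraries lay close together and the lowest mutant library was well above them. In archegonia neither of these was higher to this degree, with 25.2 ± 6.3 CPM in mutant and 35.8 ± 3.6 CPM in wild type for Pp3c4_11810, and 31.6 ± 3.0 CPM in mutant and 25.1 ± 10.8 CPM in wild type for Pp3c1_29070 (SD, n = 3). The test of whether the genotype difference was unlike in the organs gave edgeR adjusted p of 0.811 for Pp3c4_11810 and 0.961 for Pp3c1_29070. Neither is thus shown to be particular to antheridia. The edgeR adjusted p of all 5 genes in antheridia was 0.958.

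The 10 lower genes all had counts in every mutant archegonium library. In archegonia the mutant mean was above the wild type mean for 4 of them, Pp3c20_22670, Pp3c3_4950, Pp3c14_8940 and Pp3c16_13170, and below it for the other 6. Pp3c21_8410 had 1, 5 and 7 counts in mutant antheridia, or 0.0422, 0.215 and 0.189 CPM, and 4.20, 7.27 and 9.74 CPM in wild type antheridia. Its archegonium level was 7.04 ± 0.73 CPM in mutant and 7.24 ± 1.36 CPM in wild type (SD, n = 3). Pp3c20_22670 had 1.52, 0.344 and 1.29 CPM in mutant antheridia, against 12.0, 14.1 and 10.4 CPM in wild type antheridia, and in archegonia 17.9 ± 3.6 CPM in mutant and 14.1 ± 4.8 CPM in wild type. The test of a difference between the organs gave edgeR adjusted p of 0.611 for Pp3c21_8410 and 0.961 for Pp3c20_22670, so neither is shown to be particular to antheridia.

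Pp3c9_8920 had 45.5, 53.7 and 57.0 CPM in mutant antheridia, against 461, 190 and 258 CPM in wild type, a wild type mean 5.82-fold above that of the mutant. Pp3c14_8940 had 22.4, 5.12 and 5.12 CPM in mutant and 80.5, 112 and 114 CPM in wild type antheridia, and Pp3c16_13170 had 43.6, 22.0 and 14.8 CPM in mutant and 171, 129 and 106 CPM in wild type antheridia. In both, the library labelled mutant antheridia 1 was the mutant library nearest to wild type. Their archegonium levels were 52.0 ± 48.0 CPM in mutant and 27.7 ± 8.0 CPM in wild type for Pp3c14_8940, and 57.5 ± 53.6 CPM in mutant and 37.5 ± 18.9 CPM in wild type for Pp3c16_13170 (SD, n = 3). Pp3c3_4950, Pp3c1_22810 and Pp3c19_15670 had 2, 1 and 1 counts in the library labelled mutant antheridia 1 and at most 2 counts in mutant antheridia 2 and 3, whereas every wild type library of these genes had between 54 and 231 counts. The other lower genes were Pp3c3_11110 and Pp3c12_11710, described above.

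**Figure D1:**
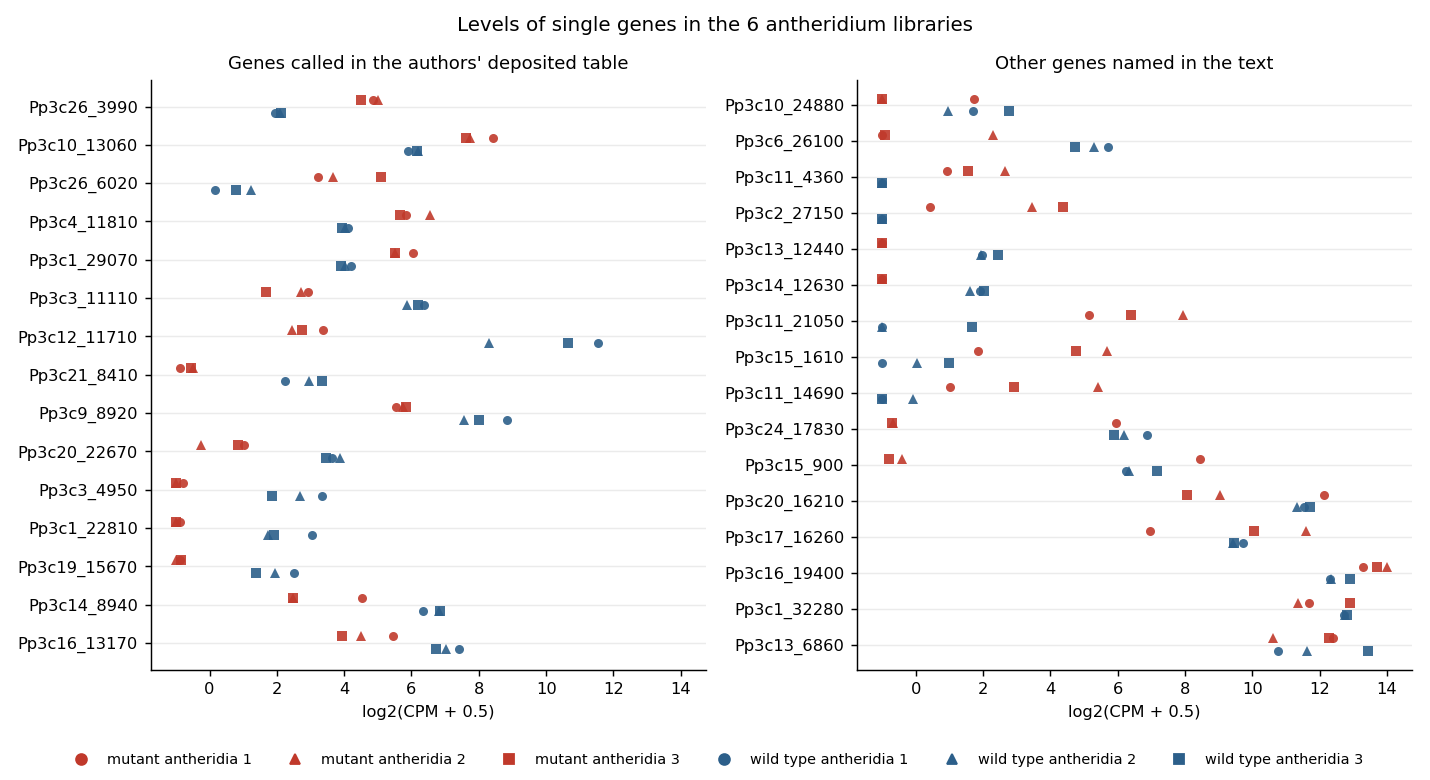
Level of single genes as log2(CPM + 0.5), with 1 point per library. Mutant libraries are red and stand above wild type libraries in blue, and the marker shape gives the library number. On the left are the 15 genes called in the authors' deposited table, 5 higher and then 10 lower in the mutant, where the red and blue points of each gene do not overlap. On the right are other genes named in the text, among them Pp3c24_17830 and Pp3c15_900, where mutant antheridia 1 stands far from the other mutant libraries.

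Some genes had antheridium counts in 1 genotype only. No count in any mutant antheridium library together with counts in all wild type antheridium libraries was found for 95 genes. The reverse was found for 13 genes, where the count table held 32926 genes. Of these, 15 of the 95 and 1 of the 13 reached 1 CPM in every antheridium library of the other genotype. The highest mean among the 95 was 5.04 CPM, so the 95 were all weakly counted. In archegonia, 30 of the 95 had at least 1 count in every library, mutant ones included. Mutant antheridia 2 and 3 had the fewest detected genes of the 6 libraries, at 19088 and 20359. The part of detection in the 95 and the 13 was not tested. Pp3c13_12440 had no count in mutant antheridia, against 3.44, 3.36 and 4.96 CPM in wild type antheridia, at least 109.8-fold lower in the mutant when its 3 libraries together are set to 3 counts (adjusted p = 0.958 in edgeR). Pp3c14_12630 likewise had no count in mutant antheridia, against 3.23, 2.55 and 3.62 CPM in wild type antheridia, at least 87.7-fold lower (edgeR adjusted p = 0.958). Both were counted in mutant archegonia, with 41, 30 and 10 counts for Pp3c13_12440 and 30, 8 and 0 counts for Pp3c14_12630.

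In the other direction, Pp3c11_4360 had 1.39, 5.72 and 2.43 CPM in mutant antheridia and no count in wild type, at least 81.5-fold higher over the group. Pp3c2_27150 had 0.844, 10.4 and 20.4 CPM in mutant antheridia and no count in wild type, at least 270.9-fold higher, with the library labelled mutant antheridia 1 far below the other mutant libraries. Outside mutant antheridia it was all but uncounted, with 2 counts in mutant archegonia 2 and 0 in the other archegonium libraries. Without mutant antheridia 1 these bounds were 104-fold for Pp3c11_4360 and 395.5-fold for Pp3c2_27150. The edgeR adjusted p of both genes was 0.958 over 6 libraries.

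Without the library labelled mutant antheridia 1, edgeR called 2 of 21803 genes (0.00917%), both lower in the mutant. An unadjusted p under 0.05 was reached by 2124 genes (9.74%), of which 604 were higher and 1520 lower. The remaining mutant libraries lay above all wild type libraries in 2195 genes (10.1%) and below them in 3581 genes (16.4%), shares that are not comparable with those of 6 libraries because fewer mutant libraries had to lie beyond wild type. For the 2195 higher genes, the left-out library was also above wild type in 42.8%, within its range in 33.5% and below it in 23.7%. For the 3581 lower genes, it was below wild type in 39.2%, within its range in 37.4% and above it in 23.5%. The DESeq2 Wald test called 880 genes (4.04%) from these 5 libraries, 100 higher and 780 lower in the mutant. Of the 780 lower genes, 414 had no count in either mutant antheridia 2 or 3, and in 510 the left-out library was at or above the lowest wild type library. Without mutant antheridia 2 or 3 as well, the median log2 fold change over tested genes was -0.24 and -0.40. Each of these fits left a single mutant library, whose spread is assumed to be that of wild type, so no count of calls is given. The edgeR count was 0, 0 and 1 when wild type antheridia 1, 2 or 3 was left out as well.

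Both called genes had wild type or higher levels in the library labelled mutant antheridia 1. Pp3c24_17830 had 0.129 and 0.108 CPM in mutant antheridia 2 and 3, from 3 and 4 counts, but 61.1 CPM in mutant antheridia 1, against 117, 72.7 and 58.9 CPM in wild type antheridia. Without mutant antheridia 1 its log2 fold change was -9.42 ± 0.76 (SE; edgeR adjusted p = 0.0154), and with it -2.03 ± 1.56 (SE; edgeR adjusted p = 0.958). Pp3c15_900 had 0.258 and 0.0809 CPM in mutant antheridia 2 and 3, from 6 and 3 counts, and 349 CPM in mutant antheridia 1, above the 74.9, 80.3 and 144 CPM of wild type antheridia. Its log2 fold change was -9.32 ± 0.82 (SE; edgeR adjusted p = 0.0154) without that library and 0.22 ± 1.81 (SE; edgeR adjusted p = 0.993) with it. Both calls were lost in limma-voom (adjusted p = 0.387 for each), with sample quality weights (limma adjusted p = 0.892 for each) and in the legacy edgeR fit (adjusted p = 0.189 for Pp3c24_17830 and 0.243 for Pp3c15_900). They were also lost without wild type antheridia 1 (edgeR adjusted p = 0.0533 for Pp3c24_17830 and 0.204 for Pp3c15_900) or 2 (0.0873 for each), and Pp3c15_900 without wild type antheridia 3 (0.0914). In mutant archegonia neither gene was near 0, with 372, 418 and 309 CPM for Pp3c24_17830 and 68.6, 1163 and 24.5 CPM for Pp3c15_900.

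The genes leading the higher side without the library labelled mutant antheridia 1 missed the threshold. Pp3c15_1610 had 50.7 and 26.6 CPM in mutant antheridia 2 and 3 and 3.08 CPM in mutant antheridia 1, against 0, 0.517 and 1.5 CPM in wild type antheridia, and it had no count in any archegonium library. Its log2 fold change was 5.81 ± 1.04 (SE; edgeR adjusted p = 0.322), or 5.29 ± 1.28 (SE; edgeR adjusted p = 0.958) over all 6 libraries. Pp3c11_14690 had 42.1 and 7.09 CPM in mutant antheridia 2 and 3 and 1.52 CPM in mutant antheridia 1, against 0, 0.443 and 0 CPM in wild type antheridia. Its log2 fold change was 7.26 ± 1.43 (SE; edgeR adjusted p = 0.322), or 6.72 ± 1.65 (SE; edgeR adjusted p = 0.958) over all 6 libraries. In these genes the library labelled mutant antheridia 1 was above all wild type libraries and below both other mutant libraries.

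Transcripts that were well counted in wild type were near absent from single mutant libraries. Of 14858 genes with at least 5 CPM in every wild type library, 8 (0.0538%) were under 0.5 CPM in the library labelled mutant antheridia 1, 906 (6.10%) in mutant antheridia 2 and 426 (2.87%) in mutant antheridia 3. Of these genes, 793 were near absent from mutant antheridia 2 only and 317 from mutant antheridia 3 only. Another 108 (0.727%) were near absent from both and present in the library labelled mutant antheridia 1, and 0 genes were near absent from all 3. Among the 108, the library labelled mutant antheridia 1 was at or above the lowest wild type library in 62 and below every wild type library in 46. All 6 archegonium libraries had at least 0.5 CPM in 73 of the 108. The organ comparison described below listed 5 of the 108 as higher in antheridia and 3 as higher in archegonia. Of all 21288 tested genes it listed 2737 as higher in antheridia and 678 as higher in archegonia.

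The same count was made the other way round. Of 12656 genes with at least 5 CPM in every mutant library, 56 (0.442%), 3 (0.0237%) and 12 (0.0948%) were under 0.5 CPM in wild type antheridia 1, 2 and 3. In archegonia, of 14870 genes with at least 5 CPM in every wild type library, 1, 1 and 245 were under 0.5 CPM in mutant archegonia 1, 2 and 3, and Pp3c6_26100 was the 1 gene near absent from all of them. Near-absent genes thus concerned mainly mutant antheridia 2 and 3, which also had the fewest detected genes of the 6 antheridium libraries. The part of detection in these counts was not tested. With 10 CPM asked of wild type in place of 5, the counts were 2, 443 and 190 in mutant antheridia 1, 2 and 3.

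**Figure D2:**
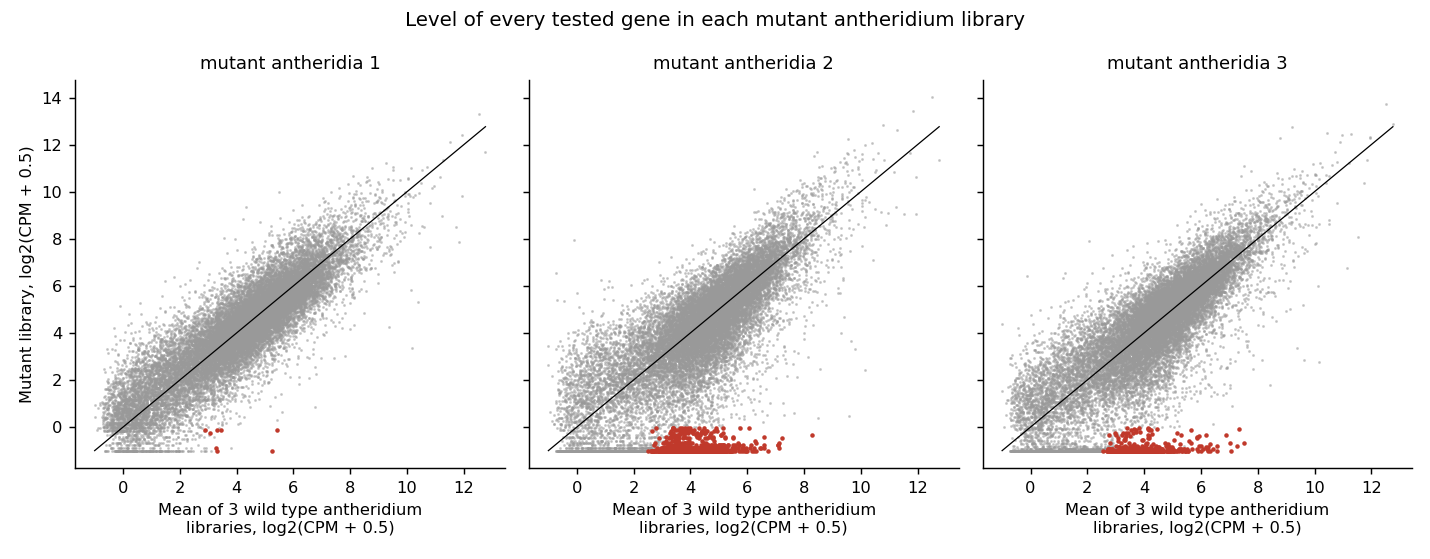
Level of each of the 21288 tested genes in 1 mutant library (vertical axis) against the mean of the 3 wild type libraries (horizontal axis), both as log2(CPM + 0.5), with the line of equal levels. Red points are genes with at least 5 CPM in every wild type library and under 0.5 CPM in that mutant library, 8 in mutant antheridia 1, 906 in mutant antheridia 2 and 426 in mutant antheridia 3.

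The replicates of mutant antheridia spread more widely than those of wild type at every expression level. The median SD of log2(CPM + 0.5) among the 3 libraries was 0.90 in mutant and 0.51 in wild type antheridia, and 15809 of 21288 genes (74.3%) had the larger SD in the mutant. Among genes averaging 100 CPM and over, where counting error is smallest, the median SD was 0.79 in mutant and 0.39 in wild type antheridia, and 84.3% of genes were wider in the mutant. Between mutant antheridia 2 and 3 alone the median SD was 0.76, from 2 values per gene and so not comparable with an SD of 3. These libraries had the lowest Spearman correlation of any pair, at 0.707. At least 16-fold lay between the highest and lowest mutant library in 2705 genes (12.7%), and between the wild type libraries in 371 genes (1.74%), with 0.5 CPM added. Of the genes with such a gap in the mutant, 862 varied less than 2-fold among wild type libraries, while 18 genes showed the reverse.

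**Figure D3:**
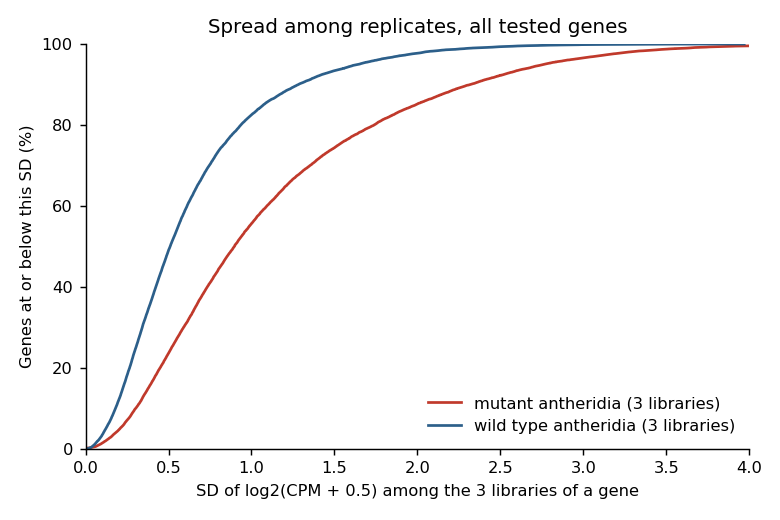
Share of the 21288 tested genes (vertical axis, percent) whose SD of log2(CPM + 0.5) among the 3 libraries of a group is at or below the value on the horizontal axis. The curve of mutant antheridia (red) runs to the right of that of wild type antheridia (blue), with medians of 0.90 and 0.51.

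The 2 most counted genes with such a gap differed in which mutant library was high. Pp3c20_16210 had 4431, 530 and 268 CPM in mutant antheridia 1, 2 and 3, against 2944, 2587 and 3352 CPM in wild type antheridia. The library labelled mutant antheridia 1 was above wild type and the others were below it, and the log2 fold change was -0.76 ± 1.05 with that library and -2.89 ± 0.70 without it (SE; edgeR adjusted p = 0.969 and 0.404). Pp3c17_16260 had 124, 3100 and 1059 CPM in mutant antheridia, against 845, 694 and 708 CPM in wild type antheridia. Here the library labelled mutant antheridia 1 was below wild type and the others were above it.

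Of the 3 genes with the most counts over the 6 libraries, none passed the threshold. Pp3c16_19400 took the most, with 10009, 16441 and 13432 CPM in mutant antheridia, against 5108, 5174 and 7662 CPM in wild type antheridia. All mutant libraries were above all wild type libraries, at a mean 2.22-fold higher and 1.15 ± 0.96 as log2 fold change (SE, with adjusted p = 0.958 in edgeR). Pp3c1_32280 had 3319, 2632 and 7570 CPM in mutant antheridia, against 6775, 6878 and 7159 CPM in wild type antheridia, where the wild type libraries agreed within 1.06-fold and the mutant libraries spanned 2.88-fold around them. Pp3c13_6860 had 5371, 1581 and 4925 CPM in mutant antheridia, against 1721, 3141 and 11153 CPM in wild type antheridia, so that the groups overlapped throughout.

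Genes that mark each organ were taken from the authors' deposited table of male against female organs over both genotypes, since no cell type markers could be looked up by name. That table called 2758 genes higher in antheridia and 949 higher in archegonia. It was made from these antheridium libraries together with the archegonia, so the lists are a description and not independent evidence. Of the antheridium-enriched genes, 2737 were tested here, and their median log2 fold change was 0.54 in mutant against wild type antheridia, beside 0.02 over all tested genes. In 77.5% of them the mutant was higher. Mutant libraries were above wild type without overlap in 230 of the 2737 (8.40%) and below in 37 (1.35%), beside 4.41% and 6.33% of all tested genes. The median difference from the wild type mean was 0.38, 0.59 and 0.31 on the log2 scale in mutant antheridia 1, 2 and 3, and -0.15, -0.03 and 0.21 in wild type antheridia 1, 2 and 3. With this list every mutant library was above every wild type library, but the place of the library labelled mutant antheridia 1 depended on the list. For genes called at an adjusted p under 0.001 in the authors' deposited table, its median was 0.27, against 0.30 in wild type antheridia 3. For genes called in edgeR from the wild type libraries of both organs alone, a list chosen after seeing the data, it was -0.27, below the -0.23, -0.13 and 0.40 of wild type antheridia 1, 2 and 3, while mutant antheridia 2 and 3 were at 1.30 and 0.46. Without the library labelled mutant antheridia 1 the median log2 fold change of the list first named was 0.42. It was 0.34 without mutant antheridia 2. The share of all counts taken by these 2758 genes was 21.7%, 36.4% and 21.4% in mutant antheridia, against 19.5%, 18.0% and 22.7% in wild type antheridia, so mutant antheridia 2 stood apart and the other libraries overlapped.

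Archegonium-enriched genes from the same table had a median below 0. Of the 949 genes, 678 were tested, with a median log2 fold change of -0.18 and 33.6% of genes higher in the mutant. Over all tested genes these values were 0.02 and 51.4%. Mutant libraries were below wild type without overlap in 81 of the 678 (11.9%) and above in 17 (2.51%), beside 6.33% and 4.41% of all tested genes. A gene low in 1 group could pass the low-count filter through the other group alone, and the part of this in the counts was not tested. The median was -0.30 without the library labelled mutant antheridia 1. Their share of all counts was 2.94%, 2.04% and 2.23% in mutant antheridia, against 3.65%, 2.96% and 2.78% in wild type antheridia. Of the 949, 189, 290 and 270 had no count in mutant antheridia 1, 2 and 3, and 229, 177 and 221 had none in wild type antheridia. Pp3c12_11710, Pp3c3_11110 and Pp3c9_8920, 3 of the lower genes above, are on this list, and their part in the difference between the groups was not tested. Pp3c10_13060 and Pp3c26_6020 of the higher genes are on the antheridium list, as is Pp3c16_19400.

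**Figure D4:**
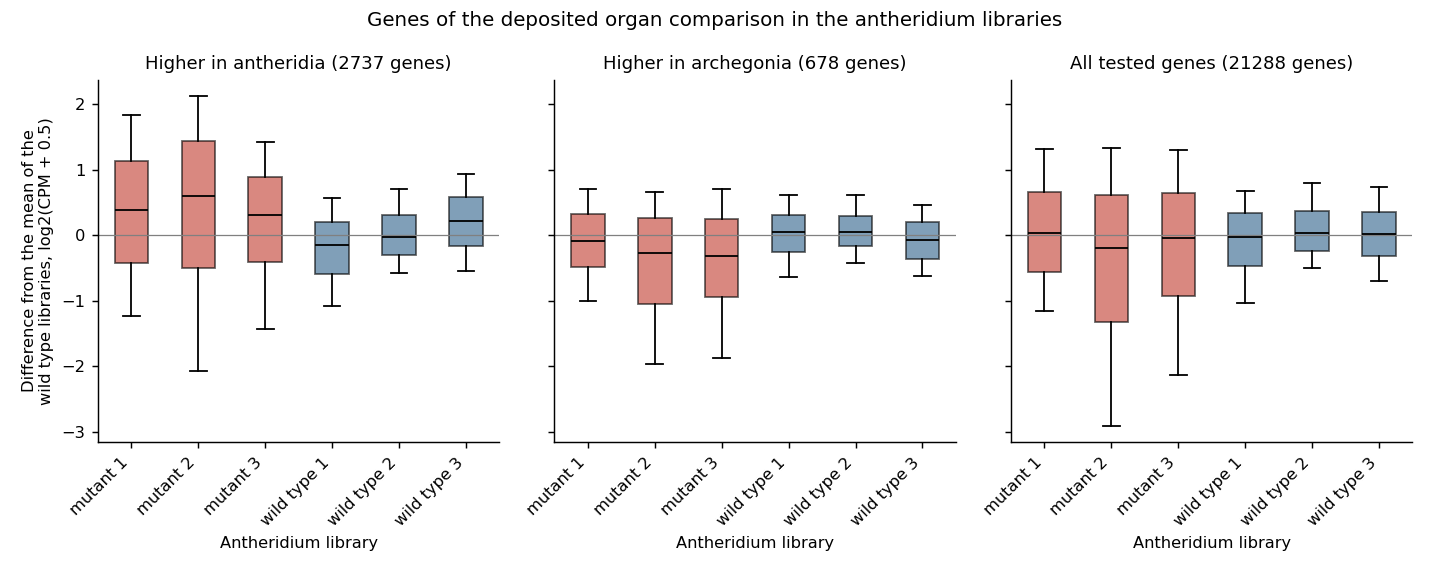
Difference of each gene from the mean of the 3 wild type libraries, as log2(CPM + 0.5), in the 6 antheridium libraries, for genes higher in antheridia, genes higher in archegonia and all tested genes. Boxes show the median and quartiles over genes and whiskers the 10th and 90th percentiles, with mutant libraries in red to the left of wild type libraries in blue. Wild type boxes are narrower in part because their own mean is the zero line. The medians of the antheridium list are 0.38, 0.59 and 0.31 in the mutant libraries and -0.15, -0.03 and 0.21 in wild type.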

How the data were processed

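RNA-seq was made from 8 organs per library; per the labels' protocols cDNA followed Smart-seq2, which keeps no strand and has no molecular identifiers. The authors deposited whole-number read counts per gene. Per the submitters' processing notes, reads were processed with Trim Galore 0.6.6, cutadapt 2.10 and HISAT2 2.1.0, and comparisons with DESeq2 2.11.40.6. No source used here gives the genome build or annotation. The authors' deposited tables of comparisons, which have no header, hold the authors' own log2 fold changes and p-values, used only where the text names that table. Their signs matched the counts for all 15 and 3707 genes called in the 2 tables used.

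The 6 antheridium libraries were fitted by group with edgeR 4.0.16 in R 4.3.3 (filterByExpr, TMM, robust non-legacy quasi-likelihood fit, Benjamini-Hochberg adjusted p under 0.05), after the code was tested on simulated data. In simulated counts with the fitted spread, edgeR called 0% of genes changed 2-fold or 8-fold, with 6 libraries and with 5. It made 2 and 1 false calls there, so a lack of calls does not show a lack of differences. The simulation gave both groups the same spread for each gene. In the data the median SD was 0.90 in mutant and 0.51 in wild type antheridia. Archegonia were fitted alone, and the organ difference over 12 libraries. Log2 fold changes are mutant over wild type, with SE as the absolute change divided by the square root of F. DESeq2 1.42.0 and limma 3.58.1 gave alternatives. CPM use filtered, TMM-adjusted totals, and scaling over 12 libraries multiplies antheridium values by 1.05 to 1.09. A floor of 3 counts is 0.0809 to 0.129 CPM per library and covers counting error only. Identifiers matched 0 of 27567 RefSeq genes of assembly ASM5946719v1. Overlapping genes and near-identical copies may share reads.

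The members and lists were chosen with earlier results of these data known. The naming rule took 20 genes. With all 6 libraries and again without mutant antheridia 1, it took the 2 higher and 2 lower genes of smallest p without overlap and with 10 CPM. It also took 2 per direction with no count in 1 group, 2 per direction from the authors' deposited table, the 3 identity genes, 2 with a 16-fold range in the mutant and under 2-fold in wild type, and the 3 with most counts. Other genes were named after their values were seen.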

Additional observations from a re-analysis of the deposited data

How the results depend on the processing

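With all 6 libraries, 0 genes were called in edgeR under DESeq2 size factors, no low-count filter, a stricter filter and the legacy fit, and by both limma-voom fits. The count was 34 (0.16%) in the DESeq2 Wald test, 3 (0.0132%) in the edgeR fit over both organs, and 0 to 2 with 1 library left out. Without mutant antheridia 1, the edgeR count of 2 became 0 with limma-voom, with sample quality weights and with the legacy fit, 880 with the DESeq2 Wald test, 159 in the fit over both organs, and 0 to 542 with a further library left out. It was 2 under the other scaling and filters. Same-numbered libraries did not deviate together, with correlations of 0.00378, -0.161 and 0.0273, and no mutant library correlated best with its own number. The replicate number as a block gave 0 calls with all libraries and 0 without mutant antheridia 1.

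Genes without overlap numbered 2286, and 5776 without mutant antheridia 1, where fewer libraries had to separate. The difference in detected genes was -2977 to -533 with 1 library left out. The median of the antheridium list was 0.34 to 0.70 with 1 library left out and 0.78 for genes called from the mutant libraries, an alternative chosen after seeing the data, as were the levels for near absence. The archegonium list gave -0.30 to -0.16 with 1 library left out, -0.54 for an edgeR list and -0.31 at an adjusted p under 0.001. For genes called from the mutant libraries it gave -1.54. Those genes were chosen on the mutant values compared here, which pulls both 0.78 and -1.54 away from 0. Genes called from the wild type libraries, also chosen after seeing the data, gave 0.67 for the antheridium list and -0.19 for the archegonium list. Near-absent genes numbered 1226, and 598 with 10 CPM asked of wild type. Of the named genes, Pp3c15_900 turned to -5.91 and -4.99 in the limma-voom fits and -5.95 with the replicate block, and ranged from -9.32 to 0.81 with 1 library left out. Pp3c17_16260, at 0.93, turned to -0.029 and -0.67 in the limma-voom fits and ranged from -0.30 to 1.47. Pp3c13_6860 ranged from -0.85 to 0.73. limma-voom moved the median of all genes to -0.20. The causes were not tested. Fewer than 4 libraries a group, and wide mutant replicates, limit what any gene test could show.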
